A study of Mus musculus with 11 samples.

Results

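The genes described here are the potassium channels of mouse dorsal root ganglia (DRGs) other than the inward rectifiers, with the subunits named after them. They are the rows of the expression table whose symbol starts with Kcn, without those that start with Kcnj and without 4 antisense rows (*Kcnab3os*, *Kcnd3os*, *Kcnmb4os1* and *Kcnmb4os2*). The rule gave 80 members of 36670 genes and used no measured value. RNA-Seq was done on DRGs, where sensory neurons have their cell bodies, each wrapped by satellite glial cells. There were 11 libraries, each read here as 1 mouse. Of the WT mice, 3 were controls and 3 had received paclitaxel (PTX, a chemotherapy agent that causes neuropathic pain) 4 weeks earlier. Of the mice without *Gpr37l1* (KO), 3 were controls and 2 had received PTX 4 weeks earlier. *Gpr37l1* encodes a receptor of satellite glial cells, and the KO strain of the study's methods (B6;129S5-Gpr37l1tm1Lex/Mmucd) lacks it in every cell type, not in glia alone. Mouse 3 of each group was labelled female and the others male, so sex and that number cannot be told apart. The KO PTX mice are numbered 2 and 3 here. The labels gave no age for these mice, and which PTX dosing was used for the sequenced mice is not given in the sources used here.

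Potassium channels let potassium leave the cell, which holds the resting potential of a neuron and ends each action potential. Voltage-gated (Kv) channels open on depolarization, two-pore channels leak at rest, and calcium- or sodium-activated channels open after firing. Auxiliary subunits form no pore and tune how much channel reaches the membrane and how fast it closes. In sensory neurons, Kv4 and Kv1.4 subunits carry the fast A-type current, Kv1.1 and Kv1.2 sit beside the nodes of myelinated axons, and Kv7 channels carry the M-current.

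The members were first read at the potassium selectivity filter, the stretch of the pore that passes potassium and holds back sodium, because it separates subunits that form a pore from those that do not. In the longest coding sequence of each gene in GENCODE M21 (mouse build GRCm38), a script looked for the potassium channel signature: codons for threonine or serine, any residue, glycine, then tyrosine, phenylalanine or leucine, then glycine. Of 79 coding members, 17 held no match, 46 held 1 and 16 held 2. All 12 Kv auxiliary subunits, all 4 BK auxiliary subunits and *Kcnrg* held none. All 14 two-pore genes held 2, the mark of a subunit with 2 pore loops in 1 chain. The other pore families held 1 match in each gene, except that *Kcnh2* and *Kcna6* held a 2nd elsewhere in the chain. The signature is short, and 5.16% of 21551 other coding genes held it at least 1 time and 0.487% at least 2 times. The following coding stretches, 30 bases each and 5′ to 3′ on the gene's strand, show it for the members that the results below come back to; the capitals mark the 3 codons of the filter's glycine, aromatic or leucine residue, and glycine.
Kcnd1: atgaccacacttGGGTATGGAgatatggta
Kcna2: atgacaactgtaGGCTATGGAgacatggtt
Kcnh7: ctaaccagtgtaGGATTTGGAaatgtgtct
Kcnt1: ttctcaactgtgGGCTTCGGTgatgtgacg
Kcnk1, loop 1: ctctccaccacaGGCTATGGCcacacggtg
Kcnk1, loop 2: ctgagcaccatcGGCCTGGGGgactatgtt
Kcnk12, loop 1: gtgtcgaccataGGTTTCGGCatgacaaca
Kcnk12, loop 2: ttcagcaccatcGGCTTCGGGgacctggtg
The stretch of *Kcna2* lies at chr3:107105218-107105247 on the plus strand in exon 3, that of *Kcnh7* at chr2:62777334-62777363 on the minus strand in exon 8 and that of *Kcnt1* at chr2:25894361-25894390 on the plus strand in exon 11. The 2nd loop of *Kcnk1* lies at chr8:126025323-126025352 on the plus strand and that of *Kcnk12* at chr17:87746444-87746473 on the minus strand, both in exon 2. In *Kcnd1* and in the 1st loops of *Kcnk1* and *Kcnk12* the stretch runs across the border of exons 1 and 2. *Kcna2* and *Kcnd1* have a tyrosine codon (TAT) in the middle of the filter, *Kcnh7*, *Kcnt1* and *Kcnk12* have a phenylalanine codon (TTT or TTC), and the 2nd loop of *Kcnk1* has a leucine codon (CTG).

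Counts summed to 52735648 to 80348732 per library. *Gpr37l1* was at 14.6 to 35.7 FPKM (fragments counted relative to transcript length and to sequencing depth, so that levels can be set side by side between genes) in the 6 WT mice and at 0.21 to 1.15 FPKM in the 5 KO mice. All 11 listed sensory neuron markers were present, and their summed level was 3981 to 4707 FPKM. Skeletal muscle markers, which do not belong to the ganglion, ran from 4.02 to 700 FPKM in summed level, with wide overlap between the WT groups and KO controls. Spinal cord markers summed to 7.34 and 22.3 FPKM in KO PTX mice 2 and 3 and to 1.82 to 6.92 FPKM in the other mice.

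In WT controls, 55 of the 80 members had a mean above 1 FPKM, 28 were above 5 FPKM and 9 above 20 FPKM. The signal was uneven: the 4 highest members made 43.3% of the summed FPKM of all members and the 12 highest made 68.6%. The sum over all members was 770 ± 36.1 FPKM (SD, n = 3) in WT controls, 797 ± 16.7 (SD, n = 3) in WT PTX mice, 806 ± 43.7 (SD, n = 3) in KO controls and 820 ± 15.3 (SD, n = 2) in KO PTX mice. The sums of both KO PTX mice (831 and 809 FPKM) were above those of all WT controls (731 to 802 FPKM), and the other pairs of groups overlapped. For scale, the 15 inward rectifier genes summed to 40.9 ± 1.67 FPKM (SD, n = 3) in WT controls. Between mice the tested members varied about as much as other genes: the highest mouse was a median of 1.53 times the lowest, against 1.48 times over all 15087 tested genes.

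**Figure D1:**
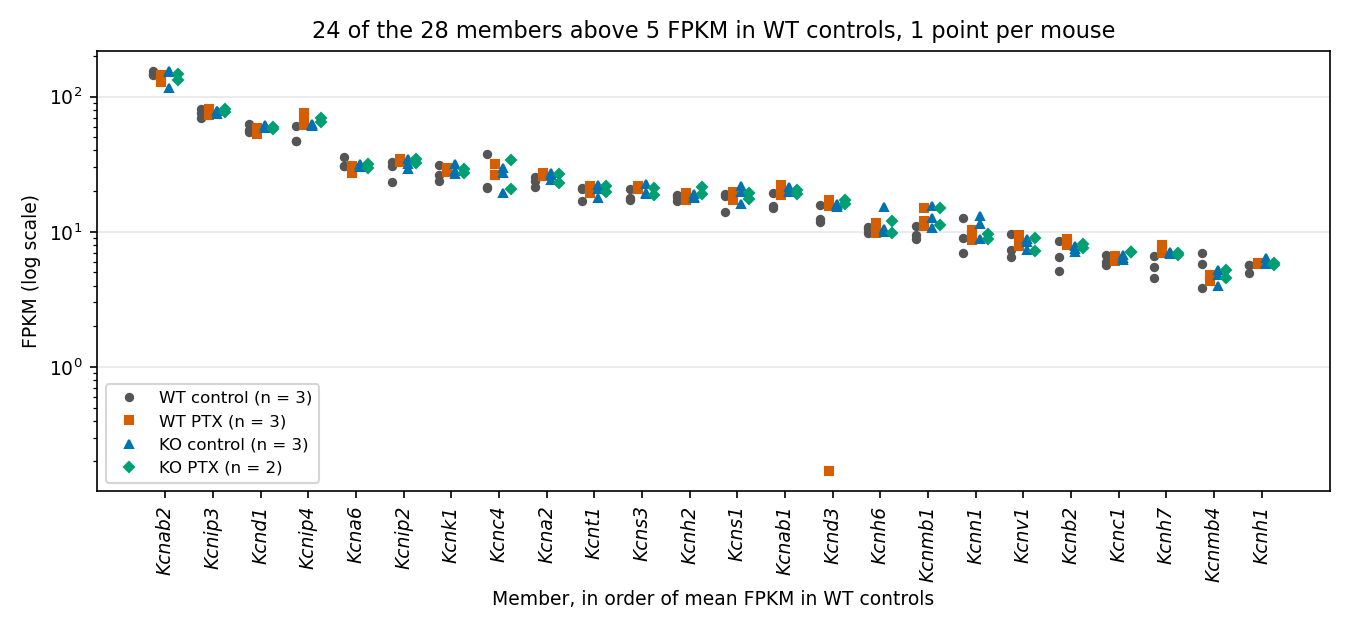
FPKM (log axis) of 24 of the 28 members above 5 FPKM in WT controls, 1 point per mouse, with 3 mice per group and 2 KO PTX mice. *Kcnab2* lies above all others, groups overlap for most members, and 1 WT PTX mouse has 0.17 FPKM of *Kcnd3*.

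The most abundant transcripts encoded auxiliary subunits. *Kcnab2*, the Kvβ2 subunit that binds Kv1 channels inside the cell, was at 147, 145 and 155 FPKM in WT controls 1, 2 and 3. *Kcnip3*, a calcium-binding KChIP subunit of Kv4 channels, was at 80.8, 70.0 and 75.6 FPKM. Both kept their place above the next member in 11 of 11 mice. *Kcnip4*, another KChIP, was at 46.7, 46.7 and 61.2 FPKM, and *Kcnip2* at 32.9, 23.2 and 30.6 FPKM. Together the 12 Kv auxiliary genes made 42.6% ± 0.820 (SD, n = 3) of the members' summed FPKM in WT controls and 42.2% to 43.0% as means of the other groups. Of these 12, 7 were above 1 FPKM. *Kcne1*, *Kcne2* and *Kcne3*, small single-pass subunits, were at 0.30 FPKM or less on average.

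Among pore subunits, Kv4 led. *Kcnd1* (Kv4.1) was at 62.7, 56.4 and 54.7 FPKM in WT controls, *Kcnd3* (Kv4.3) at 11.7, 12.5 and 15.8 FPKM and *Kcnd2* (Kv4.2) at 0.51, 0.42 and 0.44 FPKM. *Kcnd1* and *Kcnip4* changed places between mice: *Kcnd1* was the higher in 2 of 3 WT controls but in 3 of 11 mice. In the Kv1 family, *Kcna6* was at 30.8, 35.8 and 30.45 FPKM and *Kcna2* at 23.9, 21.4 and 25.6 FPKM. *Kcna4* (Kv1.4) was lower at 4.61 ± 1.26 FPKM (SD, n = 3), as was *Kcna1* (Kv1.1) at 2.40 ± 0.994. *Kcna3* was listed at 0 in all WT controls and at no more than 0.030 FPKM in any mouse.

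*Kcnc4*, a fast-repolarizing Kv3 channel, was uneven between mice, at 37.7, 21.4 and 21.3 FPKM in WT controls and at 19.3 to 34.2 FPKM in the others. Silent subunits pass current only when joined to Kv2 channels. Of these, *Kcns3* was at 17.7, 17.2 and 20.6 FPKM and *Kcns1* at 18.6, 14.1 and 19.2 FPKM. The 10 silent genes summed to 52.7 ± 2.39 FPKM (SD, n = 3).

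The 5 Kv7 genes summed to 28.2 ± 0.333 FPKM (SD, n = 3) in WT controls, and *Kcnq3*, a subunit of the M-channel, was at 1.97, 2.85 and 2.78 FPKM. Within the ERG channels, *Kcnh2* was at 18.6, 16.8 and 18.03 FPKM. *Kcnh2* was above *Kcnq3* in each of these mice.

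Of the 14 two-pore genes, 10 were above 1 FPKM, but *Kcnk1* (TWIK-1) made about as much signal as the others together. *Kcnk1* was at 26.3, 23.8 and 31.2 FPKM, in a family sum of 54.4 ± 2.46 FPKM (SD, n = 3). The mechanosensitive *Kcnk2* (TREK-1) was at 3.92 ± 0.390 FPKM and *Kcnk4* (TRAAK) at 3.37 ± 0.690 FPKM. *Kcnk18* (TRESK), a channel of nociceptors, was at 1.73 ± 0.156 FPKM (SD, n = 3 for each). *Kcnk16* was at 0.98 and 2.32 FPKM in WT controls 1 and 2 and at no more than 0.49 FPKM in the other 9 mice, so its mean of 1.13 FPKM in WT controls rests on 2 mice, and it was not tested.

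The sodium-activated *Kcnt1* (Slack) was the highest of the activated channels at 21.1, 16.9 and 20.8 FPKM, and its relative *Kcnt2* (Slick) was at 1.01, 1.57 and 0.78 FPKM. The SK channel *Kcnn1* was at 12.6, 7.01 and 8.93 FPKM. *Kcnma1*, the BK pore subunit, was at 3.02 ± 0.344 FPKM, below the level of the auxiliary subunits *Kcnmb1* at 9.78 ± 1.07 FPKM and *Kcnmb4* at 5.52 ± 1.58 FPKM (SD, n = 3 for each). *Kcnmb1* (chr11:33963013-33973641, plus strand) lies within *Kcnip1* (chr11:33629339-33993152, minus strand), and 37 of the 80 members overlap another gene row. The libraries were made with a stranded kit, but whether the counting used strand is not given in the sources used here, so reads of such pairs may not be told apart.

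**Figure D2:**
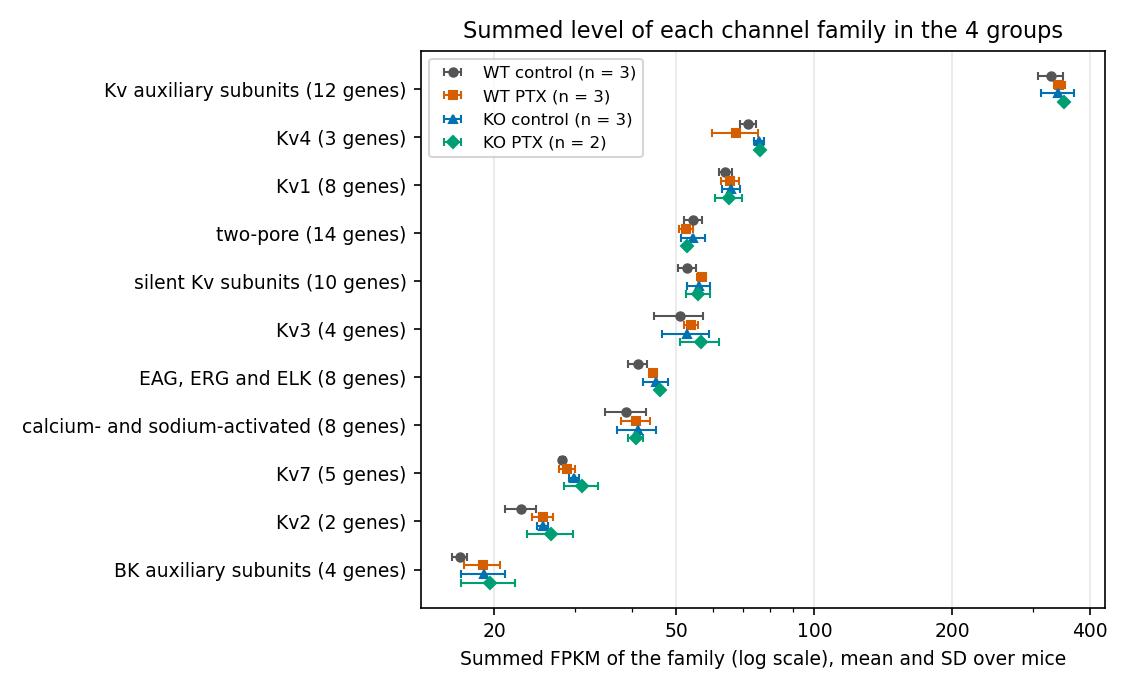
Summed FPKM (log axis) of each channel family by group, as mean and SD over 3 mice, or 2 for KO PTX. Kv auxiliary subunits are highest in every group, and the sums of most families differ little between the groups, as for the two-pore genes at 54.4, 52.5, 54.4 and 52.8 FPKM.

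Changes between groups were read from 1 fit across all genes (edgeR's quasi-likelihood test on the estimated counts with sex as a covariate). The 59 members with a mean of at least 0.5 FPKM over all mice were tested and the other 21 were not. The labels give a sex and a number for each library but do not say that each comes from 1 mouse. Each was read as 1 mouse, and the tests measure the spread between libraries. In bulk tissue, fewer cells of a type and less RNA per cell cannot be told apart.

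After PTX in WT mice, no member passed the threshold of an adjusted p under 0.05 (edgeR, Benjamini-Hochberg over 15087 genes), as 0.00663% of all genes did, and the smallest adjusted p of a member was 0.203. With DESeq2 (also adjusted over all genes), 4 of 59 members passed, or 6.78%, against 2.05% of all genes: *Kcnip4*, *Kcnmb1*, *Kcnh7* and *Kcnab1*, all higher. At an unadjusted p under 0.05 in edgeR, 9 members (15.3%) were higher against 6.59% of all genes, and 3 (5.08%) were lower against 6.87%. The groups did not overlap in FPKM for 7 members that were higher (11.9%, against 6.81% of genes) and 3 that were lower (5.08%, against 7.37%). The median log2 fold change was 0.07 over the tested members and -0.01 over all tested genes, and 41 of the 59 were positive. The median of members was 0.041 without WT control 2 and also 0.041 without WT PTX mouse 3. Without that PTX mouse, 7 members in place of 12 had an unadjusted p under 0.05.

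*Kcnip4* (chr5:48389502-49524907, minus strand) was at 46.7, 46.7 and 61.2 FPKM in WT controls and at 61.6, 64.5 and 75.4 FPKM in WT PTX mice. The groups did not overlap, by a margin of less than 1 FPKM. Its log2 fold change was 0.38 (SE 0.08, edgeR adjusted p = 0.203, DESeq2 adjusted p = 0.00175).

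*Kcnmb1*, whose product raises the calcium sensitivity of BK channels, was at 9.49, 8.89 and 10.97 FPKM in WT controls and at 12.03, 11.08 and 15.06 FPKM in WT PTX mice. Its highest control lay just below its lowest PTX mouse. The log2 fold change was 0.37 (SE 0.08, edgeR adjusted p = 0.203, DESeq2 adjusted p = 0.0095).

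*Kcnh7* (chr2:62693414-63184287, minus strand), which encodes the ERG3 pore subunit, was at 4.54, 5.48 and 6.66 FPKM in WT controls and at 7.78, 7.00 and 8.05 FPKM in WT PTX mice. All 3 PTX mice were above all 3 controls. Its log2 fold change was 0.46 (SE 0.11, edgeR adjusted p = 0.214, DESeq2 adjusted p = 0.00675).

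*Kcnab1* (Kvβ1, which speeds the closing of Kv1 channels) was at 15.1, 15.5 and 19.3 FPKM in WT controls and at 21.8, 18.7 and 22.3 FPKM in WT PTX mice. Control 3 was above PTX mouse 2, so the groups overlapped. The log2 fold change was 0.33 (SE 0.10, edgeR adjusted p = 0.25, DESeq2 adjusted p = 0.0454).

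On the lower side the smallest p-values belonged to 2 two-pore genes. *Kcnk12* (chr17:87745801-87797994, minus strand), a THIK channel, was at 4.11, 3.65 and 3.06 FPKM in WT controls and at 2.66, 2.73 and 2.15 FPKM in WT PTX mice, without overlap. Its log2 fold change was -0.52 (SE 0.16, edgeR adjusted p = 0.266, DESeq2 adjusted p = 0.0934). *Kcnk3* (TASK-1, an acid-sensitive leak channel) was at 4.35, 5.27 and 3.63 FPKM in controls and at 3.39, 4.35 and 2.46 FPKM after PTX. Its groups overlapped, and its log2 fold change was -0.39 (SE 0.13, edgeR adjusted p = 0.289). The lowest log2 fold change of a member was that of *Kcng1*, a silent subunit, at -0.86 (SE 0.38, edgeR adjusted p = 0.37). *Kcng1* was at 1.00, 2.36 and 0.92 FPKM in controls and at 0.88, 0.99 and 0.49 FPKM after PTX, so WT control 2 stood apart and the groups overlapped. Beside these values stand those of other cells: the macrophage list was lower for 7 of 7 markers (summed level 21.6 to 27.8 FPKM in WT controls and 17.0 to 19.4 FPKM in WT PTX mice), and satellite glial markers were at 993 to 1426 FPKM in WT controls and 1040 to 1217 FPKM in WT PTX mice. The neuron list was at 4068 to 4707 and 3981 to 4152 FPKM. Skeletal muscle markers were higher after PTX for 1 of 10 (summed level 18.2 to 651 FPKM in WT controls and 4.02 to 215 FPKM in WT PTX mice), Schwann cell markers for 1 of 6 (1762 to 2168 and 1535 to 1910 FPKM) and blood markers for 0 of 5 (156 to 294 and 89.3 to 281 FPKM). The part of these cells in the members' values was not tested.

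**Figure D3:**
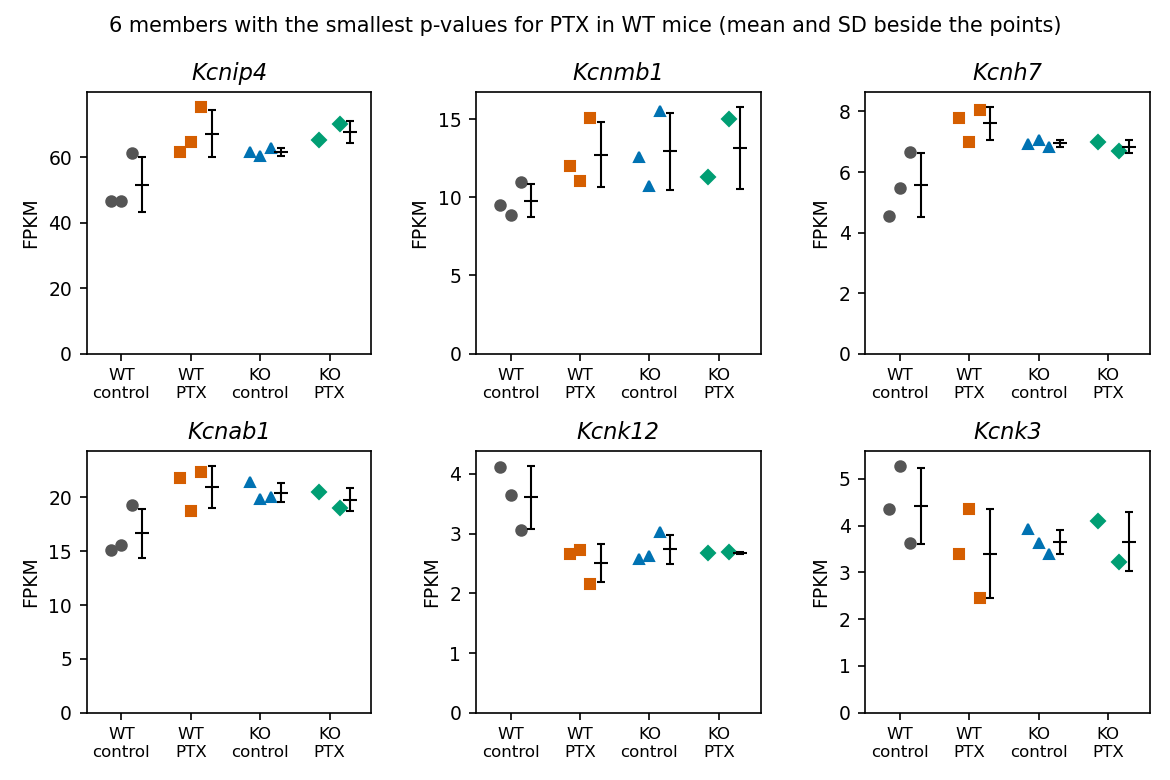
FPKM in each mouse (points) with mean and SD, by group of 3 mice or 2 for KO PTX, for the 6 members with the smallest p-values for PTX in WT mice. WT controls 1 and 2 are the 2 lowest of 11 mice for *Kcnip4*, *Kcnmb1*, *Kcnh7* and *Kcnab1* and the 2 highest for *Kcnk12*.

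Kv4 channels work as a complex of the pore with KChIP subunits and the membrane proteins DPP6 and DPP10, and the partners were therefore read too. *Dpp10* was at 6.91, 5.98 and 9.20 FPKM in WT controls and at 12.3, 10.5 and 13.6 FPKM in WT PTX mice, without overlap. Its log2 fold change was 0.72 (SE 0.14, edgeR adjusted p = 0.203, DESeq2 adjusted p = 1.9e-04). *Dpp6* was at 33.2, 36.9 and 39.2 FPKM in controls and at 42.6, 39.6 and 45.6 FPKM after PTX, and its log2 fold change was 0.23 (SE 0.06, edgeR adjusted p = 0.238, DESeq2 adjusted p = 0.0414). *Dpp10* and *Dpp6* were 2 of a wider list of 29 tested partners, most of them not of the Kv4 complex. Also listed were 16 genes of Kv1 and Kv2 clustering, 6 regulators of Kv7 and two-pore channels, 1 BK gamma subunit and 4 HCN channels. Of the 29, *Dpp10* and *Dpp6* passed with DESeq2 (6.9%, against 2.05% of all genes) and no partner passed with edgeR. At an unadjusted p under 0.05 in edgeR, 6 partners (20.7%) were higher against 6.59% of genes, and 1 (3.45%) was lower against 6.87%. The partner list was chosen with earlier results of these data known, so these shares are not a test of the partners as a set. Of the KChIPs, *Kcnip1* had a log2 fold change of 0.24 (SE 0.10), *Kcnip2* of 0.22 (SE 0.12) and *Kcnip3* of 0.02 (SE 0.07), none past a threshold after adjustment (edgeR adjusted p = 0.358, 0.427 and 0.93). The pore subunit *Kcnd1* was at 53.3 to 58.2 FPKM in WT PTX mice, within 1 SD of the control mean except in mouse 3, and its log2 fold change was -0.05 (SE 0.07, edgeR adjusted p = 0.747).

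*Kcnd3* could not be read in the same way, because 1 library stood apart. It was at 0.17 FPKM (142 counts) in WT PTX mouse 1 and at 11.7 to 17.3 FPKM (6440 to 12827 counts) in the other 10 mice. With all mice its log2 fold change for PTX in WT was -0.34 (SE 0.93), and without that mouse it was 0.27 (SE 0.10, edgeR adjusted p = 0.685). For KO against WT after PTX it was 0.63 (SE 1.02) with that mouse and 0.04 (SE 0.11) without it. Loss of this kind was rare: of 7381 genes with a median of at least 5 FPKM, 2 were below 5% of the median of the other mice in 1 mouse while those lay within 2-fold of each other, and the other was not a channel. What set this value was not tested. The antisense gene *Kcnd3os* was at 0.26 FPKM in that mouse and at 0 to 0.30 FPKM in the rest.

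**Figure D4:**
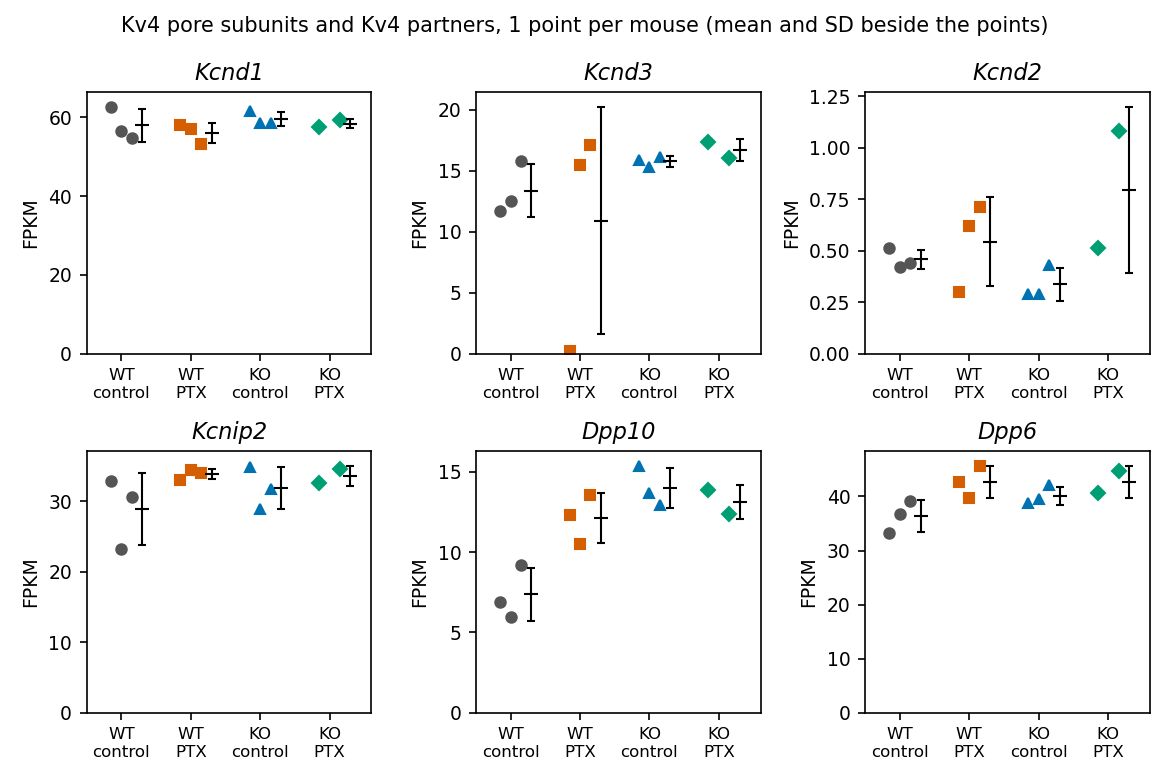
FPKM in each mouse (points) with mean and SD, by group, for the Kv4 pore subunits *Kcnd1*, *Kcnd3* and *Kcnd2*, the KChIP *Kcnip2* and the partners *Dpp10* and *Dpp6*. *Dpp10* is lowest in the 3 WT controls, and *Kcnd3* is near 0 in WT PTX mouse 1.

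Other textbook channels of sensory neurons passed no threshold after adjustment for PTX in WT mice. *Kcna4* was at 3.68, 4.11 and 6.04 FPKM in controls and at 5.90, 5.98 and 5.59 FPKM after PTX (log2 fold change 0.36, SE 0.14, edgeR adjusted p = 0.335), with control 3 above all PTX mice. *Kcnt2* had a log2 fold change of 0.69 (SE 0.26, edgeR adjusted p = 0.322) without overlap, at 1.58 to 2.01 FPKM after PTX. *Kcns3* was 0.18 higher on the log2 scale (SE 0.08, edgeR adjusted p = 0.361). For *Kcnq3*, *Kcnk2*, *Kcnk4*, *Kcnk18*, *Kcna1*, *Kcna2*, *Kcns1*, *Kcnt1*, *Kcnn1*, *Kcnma1* and *Kcnmb4* the log2 fold changes ran from -0.23 (*Kcnmb4*) to 0.40 (*Kcna1*), and each had an unadjusted p over 0.05 (edgeR).

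By family, the median log2 fold change for PTX in WT was 0.22 over 9 tested Kv auxiliary genes, 0.15 over 5 Kv1 genes, 0.10 over 5 EAG, ERG and ELK genes and -0.07 over 9 two-pore genes. Kv4 stood at -0.05 with *Kcnd3* as it is. Within the two-pore family, 4 genes were positive and 5 negative.

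In KO mice after PTX, no member passed edgeR's threshold (0.00663% of genes did) or that of DESeq2 (0.192% of genes). At an unadjusted p under 0.05, 2 members (3.39%) were higher against 1.75% of genes, and 0 were lower against 2.57%. With 2 mice in the PTX group, non-overlap is common: 11 members (18.6%) were higher without overlap against 11.3% of genes, and 0 were lower against 10.4%. The median log2 fold change of members was 0.02. Without KO PTX mouse 3 it was 0.072, and 0 members had an unadjusted p under 0.05.

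*Kcnd2* was at 0.29, 0.29 and 0.43 FPKM in KO controls and at 0.51 and 1.08 FPKM in KO PTX mice 2 and 3. *Kcnd2* reached the 0.5 FPKM filter only with these KO PTX mice counted in, so the compared values also decided that it was tested. Its log2 fold change was the largest of the members, 1.10 (SE 0.34, edgeR adjusted p = 0.999), which was 0.73 without KO PTX mouse 3 and 1.46 without KO PTX mouse 2. KO PTX mouse 3 also had the highest summed spinal cord markers, and 10 of 10 of these markers were higher in KO PTX mice than in KO controls. The part of this tissue in the values of this comparison was not tested. *Kcnf1*, a silent subunit, was at 0.73 to 1.06 FPKM in KO controls and at 1.44 and 1.35 FPKM in KO PTX mice (log2 fold change 0.59, SE 0.26, edgeR adjusted p = 0.999). On the lower side the smallest p-values belonged to *Kcnn1* (log2 fold change -0.27, SE 0.23) and *Kcnk10*, a TREK channel (-0.20), both with an edgeR adjusted p of 0.999. The genes that stood out in WT mice had smaller log2 fold changes here. *Kcnip4* was at 61.6, 60.4 and 62.8 FPKM in KO controls and at 65.3 and 70.1 FPKM in KO PTX mice, without overlap. Its log2 fold change was 0.10 (SE 0.09, edgeR adjusted p = 0.999). The mean of *Kcnip4* was 67.7 FPKM in KO PTX mice, near the 67.2 FPKM of WT PTX mice. *Kcnh7* was at 6.94, 7.07 and 6.82 FPKM in KO controls and at 7.00 and 6.68 FPKM in KO PTX mice, so its groups overlapped.

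Between KO and WT controls, again no member passed edgeR's threshold (0.00663% of genes), and DESeq2 called 1 of 59 (1.69%, against 0.278% of genes), *Kcnmb1*. At an unadjusted p under 0.05, 5 members (8.47%) were higher in KO against 3.96% of genes, and 2 (3.39%) were lower against 3.58%. The median log2 fold change of members was 0.07, against 0.00 over all genes. This comparison shares its WT controls with that of PTX in WT, so both comparisons carry the same 3 control values. Without WT control 3 the median was 0.11 and 12 members in place of 7 had an unadjusted p under 0.05. Blood markers were higher in KO controls for 0 of 5 (71.5 to 273 FPKM in summed level, against 156 to 294 FPKM in WT controls) and macrophage markers for 1 of 7 (19.4 to 23.1 against 21.6 to 27.8 FPKM). Smooth muscle and pericyte markers were higher in KO controls for 1 of 4 (30.8 to 53.6 against 41.8 to 77.6 FPKM). The part of these cells in the values was not tested.

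*Kcnmb1* was at 12.6, 10.7 and 15.6 FPKM in KO controls, and KO control 2 lay below WT control 3. Its log2 fold change was 0.39 (SE 0.08, edgeR adjusted p = 0.657, DESeq2 adjusted p = 0.0215), beside 0.37 for PTX in WT. *Kcnip4* had 0.27 (SE 0.08), *Kcnab1* 0.30 (SE 0.10) and *Kcnh7* 0.33 (SE 0.11), with an edgeR adjusted p of 0.657 for each. *Kcnk12* was at 2.57, 2.62 and 3.02 FPKM in KO controls, below all WT controls, with a log2 fold change of -0.39 (SE 0.16). *Kcna5*, a Kv1 channel at a low level, was at 0.57, 0.87 and 0.60 FPKM in WT controls and at 0.50, 0.40 and 0.38 FPKM in KO controls (log2 fold change -0.66, SE 0.23, edgeR adjusted p = 0.657). *Kcna5* reached the 0.5 FPKM filter only with the WT controls counted in, so the compared values also decided that it was tested. The partner *Dpp10* was at 15.3, 13.7 and 12.9 FPKM in KO controls, above all WT controls (log2 fold change 0.94, SE 0.15, edgeR adjusted p = 0.255, DESeq2 adjusted p = 4.8e-08). After PTX the genotypes overlapped for *Dpp10*, at 13.84 and 12.35 FPKM in KO mice and 12.31, 10.48 and 13.57 FPKM in WT mice. The log2 fold change for KO against WT was then 0.10 (SE 0.16, edgeR adjusted p = 0.993). *Dpp10* (chr1:123321471-124846039, minus strand) lies on the same chromosome as the targeted *Gpr37l1* (chr1:135160234-135167681, minus strand). The partner *Cntn2* (chr1:132509427-132543256, minus strand) lies nearer to it. Its log2 fold change for KO against WT was 0.19 in controls (SE 0.06, edgeR adjusted p = 0.657). After PTX it was also 0.19 (SE 0.07, edgeR adjusted p = 0.993), with overlap of the genotypes. The part of sequence inherited together with the targeted gene in the values of *Dpp10* and *Cntn2* was not tested.

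Read across all 11 mice, *Kcnh7* was the 1 tested member lower in every WT control than in every other mouse, and *Kcnk12* the 1 member higher. The same held for 1.29% and 1.28% of all tested genes. WT controls 1 and 2 also had the 2 highest satellite glial sums of the 11 mice, at 1426 and 1261 FPKM, and WT control 3 had the lowest at 993 FPKM. The same 2 mice had the 2 highest sums of sensory neuron markers (4471 and 4707 FPKM) and of macrophage markers (27.5 and 27.8 FPKM). The other marker lists did not put both of them highest. The part of cell composition in these levels was not tested.

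Between KO and WT mice after PTX, no member passed edgeR's threshold (0.0133% of genes did) or that of DESeq2 (0.0663%), and none had an unadjusted p under 0.05 in either direction, where 1.81% of genes were higher and 1.74% lower. The smallest p-values on the higher side were those of *Kcne1l*, a KCNE-type subunit, and *Kcnc1* (Kv3.1). *Kcne1l* was at 0.47, 0.55 and 0.60 FPKM in WT PTX mice and at 0.82 and 1.16 FPKM in KO PTX mice, with a log2 fold change of 0.87 (SE 0.42, edgeR adjusted p = 0.993). *Kcnc1* was at 6.11, 6.37 and 6.63 FPKM in WT PTX mice and at 7.06 and 7.10 FPKM in KO PTX mice (log2 fold change 0.14, SE 0.07, edgeR adjusted p = 0.993). Spinal cord markers summed to 2.41 to 6.92 FPKM in WT PTX mice and to 7.34 and 22.3 FPKM in KO PTX mice. The part of this tissue in the values of this comparison was not tested. On the lower side stood *Kcnh7* (log2 fold change -0.17, SE 0.12) and *Kcns3* (-0.10, SE 0.09). The value of *Kcnh7* was -0.07 without KO PTX mouse 3 and -0.27 without KO PTX mouse 2. With a mouse left out, 0 to 3 members had an unadjusted p under 0.05, the most without KO PTX mouse 2. A p that misses the threshold does not show that the genotypes were equal.

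The difference of the PTX effects, KO minus WT, was tested as an interaction. No member passed with edgeR (0.00663% of genes did) or DESeq2 (0.0795%). At an unadjusted p under 0.05, 1 member was higher (1.69%, against 3.12% of genes) and 4 were lower (6.78%, against 3.18%). The lower ones were *Kcnmb1* (-0.40, SE 0.12), *Kcnh7* (-0.50, SE 0.16), *Kcnab1* (-0.40, SE 0.14) and *Kcnip4* (-0.29, SE 0.12) on the log2 scale, and the higher one was *Kcnk3* (0.45, SE 0.20), each with an edgeR adjusted p of 0.724. These 5 became 10 without WT control 3 and 1 without KO PTX mouse 3. The partner *Dpp10* had a difference of -0.84 (SE 0.22, edgeR adjusted p = 0.724, DESeq2 adjusted p = 0.0574). WT controls enter this difference with a positive sign, so its values rest in part on the same 3 mice as those above.

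**Figure D5:**
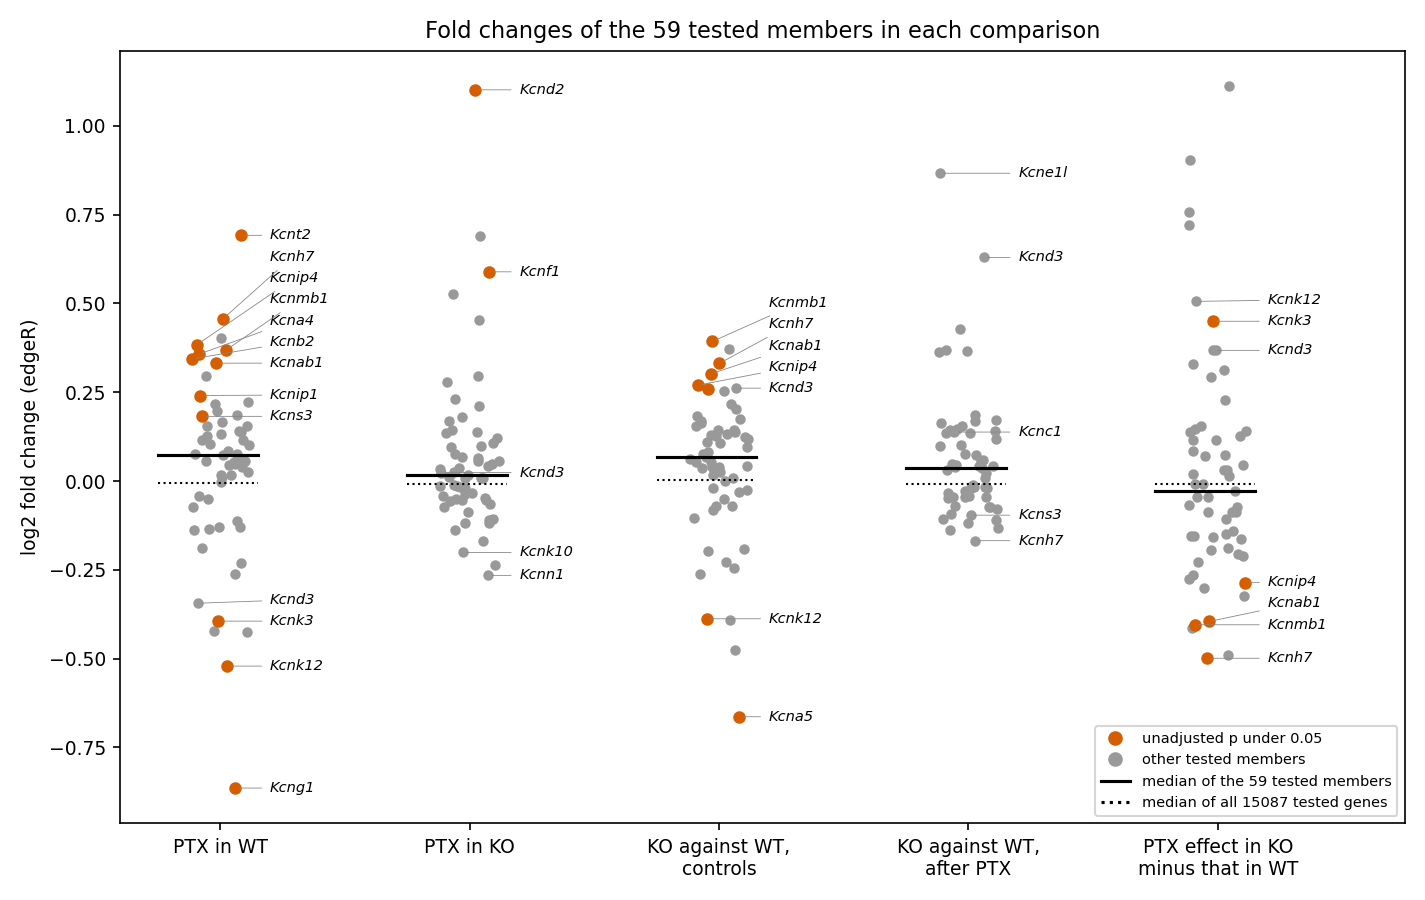
log2 fold change (edgeR) of the 59 tested members in the 5 comparisons. Orange points have an unadjusted p under 0.05, solid lines are the median of members and dotted lines that of all 15087 tested genes, and labels name most of these members, those with the smallest p-values and *Kcnd3*.

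Within groups, mouse 3 set several members apart. In all 4 groups, 7 of 59 tested members (11.9%) were higher in mouse 3 than in every other mouse of its group, against 4.18% of all tested genes, and 1 (1.69%) was lower, against 2.28%. The higher ones included *Kcnip4*, *Kcnmb1*, *Kcnc1*, *Kcnk1*, *Kcnu1* and *Kcnab3*, and the lower one was *Kcnk3*. *Kcnk1* shows it: mouse 3 was at 31.2, 29.5, 31.8 and 29.4 FPKM in WT control, WT PTX, KO control and KO PTX mice, and the next highest mouse of each group was at 26.28, 28.76, 28.03 and 27.28 FPKM. These members were chosen after their values were seen, no test was made, and with 1 labelled female per group the sex and the number of the mouse cannot be told apart.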

How the data were processed

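Poly(A) RNA of DRGs was sequenced from 11 TruSeq stranded libraries, each read as 1 mouse. The authors deposited 1 table with FPKM values, scaled by them for transcript length and library size, and with estimated counts per gene, deposited without normalization. The submitters' processing notes name cutadapt, FastQC, HISAT2, StringTie and the build mm10. In each library more genes had a count of 4 than of 3 or 5, so the counts were treated as estimates. They were rounded and tested with edgeR 4.0.16 in R 4.3.3 (TMM, quasi-likelihood test, all 11 libraries, labelled sex as covariate, genes with mean FPKM of at least 0.5, Benjamini-Hochberg over 15087 genes, threshold 0.05). SEs are the log2 fold change divided by the root of the F statistic. DESeq2 1.42.0, limma 3.58.1, other scalings, filters and covariates and each mouse left out were alternatives, and counts divided by 4 were added after the data were seen. The edgeR steps were tested on simulated data. Totals of 52735648 to 80348732 counts limit precision for members near 0.5 FPKM. Levels between genes were compared on FPKM only. Tables were made with Python 3.11.15 and pandas 2.3.3. Coordinates are those deposited, and 71 of 80 members had the same ones in GENCODE M21. Groups and numbers came from the sample descriptions, which number the KO PTX mice 2 and 3. The sample titles number the same mice 1 and 2. The replicate block and the pairs of same-numbered mice rest on the numbers of the descriptions. Named were the 12 highest members, the highest of each family, those with the 2 smallest p-values in each direction of a comparison, those past a threshold and textbook channels of sensory neurons, besides *Kcnk16* and others named for a count; some members are not reported here. The members and lists were chosen with earlier results of these data known.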

Additional observations from a re-analysis of the deposited data

How the results depend on the processing

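Groups held 2 or 3 mice, and members with a mean below 0.5 FPKM were not tested. The count of members called was 0 in edgeR for the 5 comparisons and stayed 0 under the other scalings, filters, covariates, limma fits, counts divided by 4 and with each mouse left out. A fit of only the groups compared also gave 0, and was not run for the difference of effects, which needs all groups. DESeq2 gave 4 for PTX in WT and 1 for KO against WT controls, and 0 in the others; over all genes it called 309, 29, 42, 10 and 12, against 1, 1, 1, 2 and 1 in edgeR. The cause was not tested. Members at an unadjusted p under 0.05 numbered 12 for PTX in WT and 7 to 14 with a mouse left out. They numbered 2 (0 to 3) for PTX in KO, 7 (5 to 12) for KO against WT controls, 0 (0 to 3) for KO against WT after PTX and 5 (1 to 10) for the difference of effects. Mice whose omission moved the last count by over 1.5 times were WT controls 2 and 3, WT PTX mouse 3, KO control 1 and KO PTX mouse 3, and without the sex covariate it was 2. The median over members for PTX in WT was 0.04 with the count filter of edgeR (filterByExpr). Same-numbered mice of different groups paired little: their deviations correlated at a mean of 0.04 over 15 pairs, with 4 above 0.1. Mice of different numbers were at a mean of -0.02 over 30 pairs, also with 4 above 0.1. Deviations were taken from the mean of each group, so this mean follows nearly from that of same-numbered mice. It is not a separate comparison, and the 2 KO PTX mice mirror each other. The pairs of mouse 3 were all positive, from 0.016 to 0.216. A replicate block was therefore read only here, and with the block 0 members were called in each comparison. Members above 1 FPKM in WT controls numbered 55, 43 above 2 FPKM, 74 above 0.1 FPKM and 51 to 55 without 1 control. The log2 fold change of *Kcns3* for KO against WT after PTX ran from -0.27 to 0.051 with a mouse left out, and was positive without KO PTX mouse 3. That of *Kcnh7* ran from -0.27 to -0.07. For *Kcnip4* after PTX in WT it ran from 0.33 to 0.46, for *Kcnmb1* from 0.31 to 0.42, for *Kcnh7* from 0.35 to 0.59 and for *Kcnk12* from -0.63 to -0.42.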
